A study of Mus musculus with 6 samples.

Results

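The primitive endoderm marker genes examined here are *Sox17*, *Sox7*, *Foxa2*, *Pdgfra*, *Dab2*, *Amn*, *Cubn* and *Sparc*, picked by symbol. Of these 8 genes, 5 (*Sox17*, *Pdgfra*, *Dab2*, *Amn* and *Sparc*) have a row among the 12626 genes of the processed files, and 3 (*Sox7*, *Foxa2* and *Cubn*) have no row and are not analysed here. RNA-seq was performed on WT J1 cells, a mouse embryonic stem (ES) cell line, before and after a change of culture medium. The D0 cells were grown in serum with LIF, without feeder cells on gelatin, and the D6 and D13 cells had spent 6 and 13 days in 2i+vitC, a serum-free medium with LIF, vitamin C, the MEK inhibitor PD0325901 and the Gsk3 inhibitor CT-99021. Each day has 2 samples, which the study calls biological replicates, so that every SD below rests on 2 values. All 6 samples come from a single cell line, and serum was sampled at D0 only, so the medium and the time since D0 cannot be told apart.

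The primitive endoderm is the extraembryonic layer that forms next to the pluripotent epiblast in the inner cell mass of the blastocyst, and it gives rise to the visceral and parietal endoderm that line the yolk sac. FGF signalling through MEK and ERK favours primitive endoderm over epiblast, and a MEK inhibitor blocks this choice in the embryo. The markers have distinct roles. *Sox17*, *Sox7* and *Foxa2* encode transcription factors of the endoderm. *Pdgfra* encodes a receptor tyrosine kinase found early in the lineage. *Dab2* encodes a clathrin adaptor that carries lipoprotein receptors into the cell, and *Amn* and *Cubn* encode the partners of an endocytic receptor of the visceral endoderm. *Sparc* encodes a secreted matrix glycoprotein that is abundant in parietal endoderm but is also made by many other cells.

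On the GRCm38 genome, *Sox17* lies at chr1:4490931-4497354 on the minus strand, *Pdgfra* at chr5:75152292-75198215 on the plus strand and *Dab2* at chr15:6299788-6440712 on the plus strand. *Amn* lies at chr12:111271095-111276426 on the plus strand and *Sparc* at chr11:55394500-55423183 on the minus strand. Other annotated genes overlap 3 of the 5, namely 1 gene at *Sox17*, 2 at *Dab2* and 3 at *Pdgfra*, all of them on the opposite strand save 1 at *Pdgfra*. The libraries were stranded, while the strand setting of the counting is not given in the sources used here.

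The sequences next to the start sites of *Dab2* and *Amn* are shown because these genes carried the differences between days. They are reference sequence from RefSeq on GRCm38.p6, on the plus strand, and end just before the first base that GENCODE annotates as an exon. Capitals mark CpG dinucleotides, the sites of DNA methylation.
*Dab2*, first start, chr15:6299539-6299787: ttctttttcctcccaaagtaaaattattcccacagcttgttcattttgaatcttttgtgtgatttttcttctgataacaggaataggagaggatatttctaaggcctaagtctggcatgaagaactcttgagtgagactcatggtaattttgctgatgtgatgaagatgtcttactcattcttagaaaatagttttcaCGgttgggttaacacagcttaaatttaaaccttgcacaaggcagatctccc
*Dab2*, second start, chr15:6386498-6386597: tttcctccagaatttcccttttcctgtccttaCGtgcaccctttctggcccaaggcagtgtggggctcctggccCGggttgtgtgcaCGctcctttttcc
*Amn*, chr12:111270846-111271094: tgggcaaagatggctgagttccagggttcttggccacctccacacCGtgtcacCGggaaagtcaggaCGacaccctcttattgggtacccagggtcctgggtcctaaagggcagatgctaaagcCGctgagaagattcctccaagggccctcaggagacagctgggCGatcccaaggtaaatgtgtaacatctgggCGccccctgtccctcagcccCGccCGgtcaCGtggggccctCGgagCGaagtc
The start regions of *Dab2* lie 87.0 kb apart and differ in CpG content. In windows of 300 bases around each start, the first *Dab2* window held 2 CpG dinucleotides (0.19 of the number its base composition predicts) and the second held 19 (0.72 of that number). The *Amn* window held 15 (0.52), the *Pdgfra* window 5 (0.26) and the *Sparc* window 4 (0.17), while the median of all 32851 windows was 7 CpG dinucleotides and 0.38. Counts per gene do not say which start of *Dab2* was used. No *Sox17* window was available for this comparison. Motifs of endoderm regulators were searched on both strands. The letters AGATAA, bound by GATA factors, occurred once in these windows, on the minus strand just after the first *Dab2* start, and in 11.2% of all windows. The SOX motif AACAAT did not occur in these windows and was in 10.7% of all of them. Another form of it, ACAAAG, was likewise not found, against 18.7% of all windows. The forkhead motif TGTTTAC was not found either, against 3.65%. Nor was the TCF motif CTTTGA, against 16.0%. A match or its lack is a description of these letters only.

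Expression is given as log2 CPM, the log2 of normalized counts scaled to 1000000 reads, as deposited. The reads behind each value could be read off exactly, and ranged from 73230745 to 83688345 on genes per sample. At this depth 3 reads correspond to 0.034 to 0.042 CPM. Expressed as RPM (reads per 1000000 reads on genes, without further normalization), all gene rows exceeded 1 RPM in at least 3 of the 6 samples, and 88.7% of genes exceeded it in all 6. *Pdgfra* and *Sparc* passed this level in 6 samples, whereas *Sox17*, *Dab2* and *Amn* passed it in exactly 3, as did 2.06% of all genes. In the third highest sample they had 1.14, 1.04 and 1.28 RPM, respectively. Genes at this level on a single day only, that is in 2 samples, therefore have no row. For *Dab2* the third sample was D6 replicate 2, and for *Amn* it was a D0 sample. None of the 3 symbols without a row contains the capital G that is missing from every gene name in the files, whereas *Gata4* and *Gata6*, 2 further primitive endoderm factors, cannot be found under their own names and are not analysed here.

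**Figure D1:**
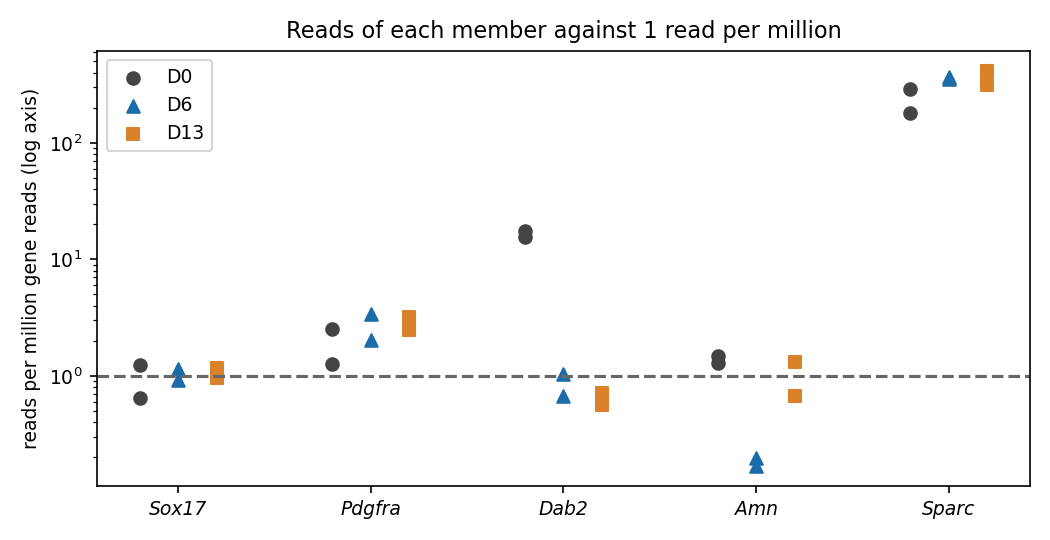
Reads of each member, as RPM (reads per 1000000 reads on genes), in the 6 samples, on a log axis, with D0 as circles, D6 as triangles and D13 as squares. The dashed line marks 1 RPM, which *Sox17*, *Dab2* and *Amn* exceed in 3 samples each and *Pdgfra* and *Sparc* in 6.

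Levels of different genes were compared as CPM per kb of annotated exon. *Sparc* was far above the other members on every day, with D0 at 61.3 ± 22 CPM per kb, D6 at 91.3 ± 0.19 and D13 at 97.9 ± 23.8 (SD, n = 2), higher than 93.9%, 96.0% and 95.9% of the 11458 genes with a matched length. At D0 it was followed by *Dab2* (2.22 ± 0.09), *Amn* (0.74 ± 0.10), *Sox17* (0.19 ± 0.08) and *Pdgfra* (0.19 ± 0.08). At D6 the order below *Sparc* was *Pdgfra* (0.26 ± 0.10), *Sox17* (0.21 ± 0.03), *Dab2* (0.11 ± 0.03) and *Amn* (0.10 ± 0.01). At D13 it was *Amn* (0.55 ± 0.28), *Pdgfra* (0.29 ± 0.04), *Sox17* (0.23 ± 0.04) and *Dab2* (0.09 ± 0.01). *Dab2* thus went from the second place at D0 to the last at D13, and *Amn* was last at D6 only. *Sox17* and *Pdgfra* overlapped between their samples on all 3 days, as did *Dab2* and *Amn* at D6, and the other neighbours in the order did not overlap. Apart from *Sparc*, the highest place among all genes was that of *Dab2* at D0, above 27.2% of genes, and the lowest that of *Amn* at D6, above 0.51%. In bulk RNA, fewer cells of a type and less RNA per cell cannot be told apart.

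**Figure D2:**
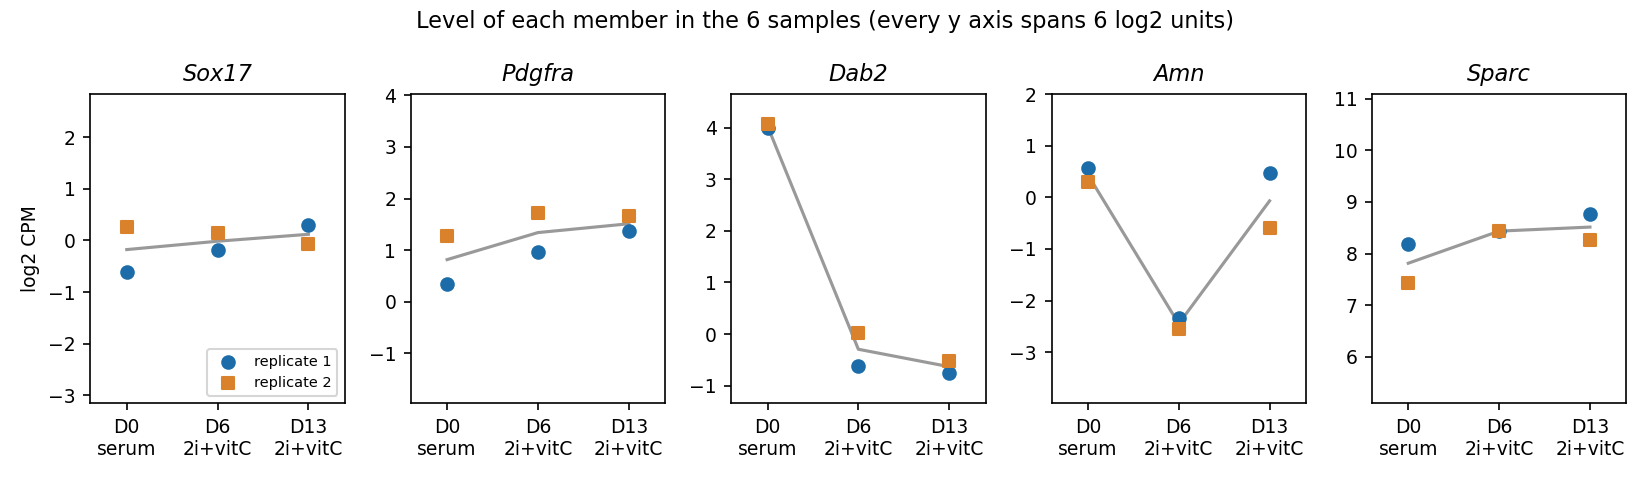
Log2 CPM of the 5 members at D0, D6 and D13, with circles for replicate 1, squares for replicate 2 and a line through the means of the days. *Dab2* falls from 4.03 at D0 to -0.30 at D6 and -0.63 at D13, *Amn* dips to -2.45 at D6, and the days overlap for *Sox17*.

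To ask which markers changed upon the switch from serum to 2i+vitC, the days were compared with limma in a single fit of all 6 samples, with Benjamini-Hochberg adjustment over all 12928 genes and transposon families. Calls required a difference of over 4-fold and an adjusted p under 0.05. Between D0 and D6, 2 of the 5 members were called, *Dab2* and *Amn*, both lower at D6, while 9.81% of all genes were called in either direction and 3.9% as lower. Between D6 and D13, 0 of 5 were called by limma, against 1.09% of all genes, and 1 of 5 had an unadjusted p under 0.05. Between D0 and D13, 1 of 5 was called, *Dab2*, again lower, against 13.5% of all genes in either direction and 6.01% as lower. By limma 0 members were called higher in each of the 3 comparisons, against 5.91%, 0.388% and 7.45% of all genes. At an unadjusted p under 0.05, *Amn* was higher at D13 than at D6 and *Sparc* at D13 than at D0.

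*Sox17* stayed near 1 CPM throughout. The D0 samples had a log2 CPM of -0.61 and 0.26, the D6 samples -0.18 and 0.15, and the D13 samples 0.31 and -0.07, from 51 to 104 reads per sample. The lowest and the second highest value both came from D0, and the samples of all pairs of days overlapped. On the log2 scale D6 differed from D0 by 0.16 (95% confidence interval -0.96 to 1.29), D13 from D6 by 0.13, and D13 from D0 by 0.30 (-0.83 to 1.42), with adjusted p values in limma of 0.854, 0.896 and 0.654. These intervals exclude a 4-fold change in either direction, but not a 2-fold rise. Leaving out 1 sample turned the sign of each of these differences, with a range of -0.28 to 0.60 from D0 to D6, and of -0.14 to 0.73 from D0 to D13.

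*Pdgfra*, the receptor, was slightly higher in means after the switch. Log2 CPM values were 0.35 and 1.28 for D0, 0.96 and 1.72 for D6, and 1.37 and 1.66 for D13, from 100 to 280 reads. Both D13 samples lay above both D0 samples, while D6 overlapped with each of the other days. The share of all genes with D13 above D0 in this way was not counted. D13 exceeded D0 by a log2 fold change of 0.69 (SE 0.46, 95% confidence interval -0.35 to 1.74, adjusted p = 0.253 in limma), an interval that includes both no change and a rise of over 2-fold. For D6 the difference to D0 was 0.52 (-0.52 to 1.57, adjusted p = 0.467). Leaving out D0 replicate 1 or 2 gave 0.23 and 1.16 for D13, and 0.057 and 0.99 for D6, with no call.

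*Dab2*, the endocytic adaptor, showed the largest change of the 5 members. In log2 CPM, D0 gave 3.99 and 4.07, D6 gave -0.61 and 0.02, and D13 gave -0.75 and -0.52, from 1250 and 1466 reads at D0 to between 42 and 86 reads in the other samples. Both D0 samples were far above the other 4, and the D6 and D13 samples overlapped. Both D0 samples lay above all 4 others, by any margin, in 26.8% of all genes. *Dab2* fell 20.04-fold by D6, a log2 fold change of -4.32 (SE 0.40, 95% confidence interval -5.23 to -3.42, adjusted p = 0.000146 in limma). By D13 it was 25.3-fold lower than at D0, a log2 fold change of -4.66 (SE 0.40, -5.57 to -3.76, adjusted p = 6.95e-05). The difference between D6 and D13 was -0.34 (SE 0.40, adjusted p = 0.639). The call of *Dab2* at both days held under all alternatives tried, with log2 fold changes of -4.64 to -3.25 for D6 and -4.78 to -3.40 for D13.

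*Amn*, whose product anchors the cubilin receptor at the cell surface, was low at D6 alone. The log2 CPM values of D0 were 0.58 and 0.30 (117 and 107 reads), those of D6 were -2.35 and -2.55 (15 and 14 reads), and those of D13 were 0.46 and -0.60 (98 and 49 reads). Both D6 samples lay below all 4 others, and the D0 and D13 samples overlapped. Such a D6 pattern without overlap was seen in 8.36% of all genes. By D6 *Amn* had fallen 7.40-fold, with a log2 fold change of -2.89 (SE 0.55, 95% confidence interval -4.14 to -1.63, adjusted p = 0.00562 in limma). D13 in turn exceeded D6 by a log2 fold change of 2.38 (SE 0.55, 1.13 to 3.64, adjusted p = 0.0502), just outside the threshold. It passed without D0 replicate 2 (adjusted p = 0.0493 in limma) and without D13 replicate 2 (0.0397), and over all alternatives the adjusted p ranged from 0.0250 to 0.321. D13 differed from D0 by -0.51 (-1.76 to 0.75, adjusted p = 0.486), and the difference was 0.024 without D13 replicate 2. A call as lower at the first step and higher at the second was made for 0.0871% of all genes, which do not include *Amn*.

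*Sparc*, the matrix protein, was the member with by far the most reads, from 15135 to 31064 per sample. In log2 CPM, the D0 samples were at 8.19 and 7.44, the D6 samples at 8.44 and 8.43, and the D13 samples at 8.76 and 8.26. Both D0 samples lay below all 4 others, and D6 lay within the range of D13. The share of all genes with this pattern was not counted. The reverse, with both D0 samples above all 4 others, was seen in 26.8%. D13 exceeded D0 by a log2 fold change of 0.70 (SE 0.29, 95% confidence interval 0.04 to 1.37, adjusted p = 0.0839 in limma), a ratio of 1.62. D6 exceeded D0 by 0.62 (-0.04 to 1.29, adjusted p = 0.165). Neither was called. The difference between D13 and D0 depended on which D0 sample was kept, with 0.33 for replicate 1 alone (adjusted p = 0.390 in limma) and 1.07 for replicate 2 alone (adjusted p = 0.0262), under 4-fold in both cases.

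**Figure D3:**
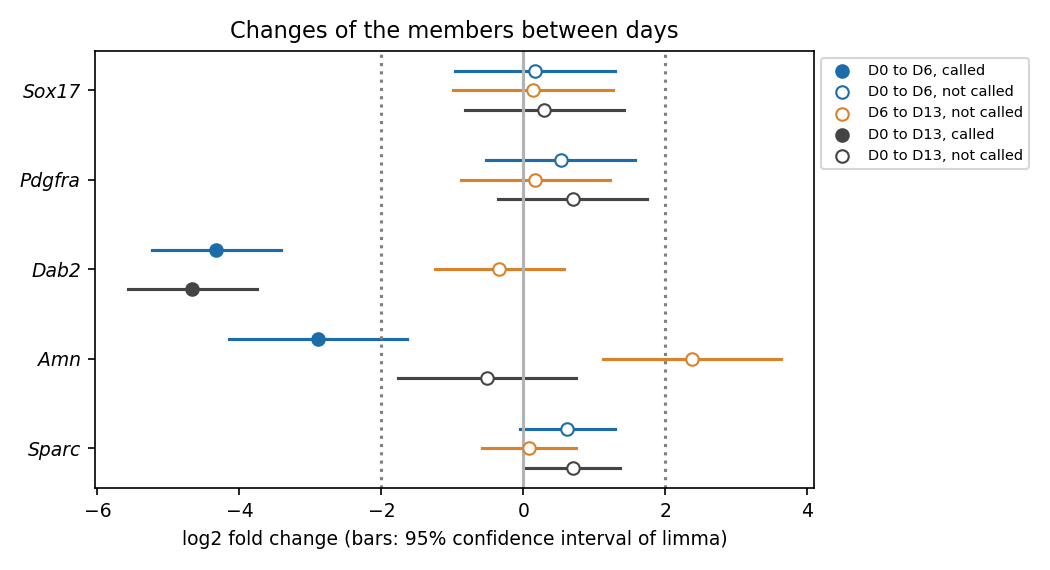
Log2 fold change of each member from D0 to D6, D6 to D13 and D0 to D13, with 95% confidence intervals from limma, filled points for called changes and dotted lines at a 4-fold change. *Dab2* is called at -4.32 and -4.66 and *Amn* at -2.89, while all intervals of *Sox17* and *Pdgfra* cross 0.

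D6 was also compared with the mean of D0 and D13, with a call at more than a 2-fold difference and an adjusted p under 0.05. *Amn* (log2 difference -2.63, SE 0.48, adjusted p = 0.0127 in limma) and *Dab2* (-1.99, SE 0.34, adjusted p = 0.0105) were called as lower, 2 of 5 members against 3.07% of all genes as lower, 4.62% as higher and 7.69% in either direction. For *Dab2* only D0 was high, and D6 and D13 overlapped. Without D6 replicate 1 neither was called (adjusted p = 0.0748 for *Amn* and 0.157 for *Dab2*), and without D6 replicate 2 *Amn* was not (0.0894).

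Markers of other cell types were examined alongside. Their calls between D0 and D13 stand against 6.01% of all genes called lower and 7.45% called higher. Of 15 fibroblast markers, 5 had a row, and their summed level was 35.1 and 14.6 CPM in the D0 samples, 6.32 and 6.13 CPM in the D6 samples, and 10.6 and 7.99 CPM in the D13 samples. By day this sum was highest at D0, as was *Dab2*, and lowest at D6, as was *Amn*. Within D0 the sum was higher in replicate 1. *Dab2* was lower there, at 15.9 CPM against 16.8 CPM in D0 replicate 2. *Amn* was higher there, at 1.49 CPM against 1.23 CPM. At D6 and at D13 the sum and *Amn* were again higher in replicate 1, and *Dab2* was lower. *Col3a1*, *Dcn*, *Lum* and *Postn*, which define fibroblasts, had no row, and *Col1a2* was the only one of the 5 called between D0 and D13 (log2 fold change -3.86, SE 0.76, adjusted p = 0.00419 in limma). Of 12 trophoblast markers, 4 had a row, with a summed level of 41.5 and 72.7 CPM at D0 and between 81.0 and 96.4 CPM later. Most of this sum came from *Tfap2c*, whose log2 fold change from D0 to D6 was 1.02. *Krt7*, *Ascl2* and *Esx1* went the other way by D6, at -1.79, -1.19 and -0.24, and none was called between D0 and D6. All 4 had a higher mean at D13 than at D0. Limma called 0 of the 4 between D0 and D13 (1 at an unadjusted p under 0.05), and the defining factors *Cdx2*, *Elf5* and *Hand1* had no row. From D6 to D13, 1 of the 4 was called higher, *Krt7* (log2 fold change 2.20, adjusted p = 0.0241 in limma), against 0.388% of all genes. Against the mean of D0 and D13, limma called 2 of 5 fibroblast and 2 of 4 trophoblast markers lower at D6 and 0 higher. Over all genes these shares were 3.07% lower and 4.62% higher. The part of these cell types in the results was not tested. Of 14 pluripotency genes all had a row, 4 were called higher and 1 lower at D13 than at D0, and their summed level was 3997 and 4231 CPM in the D0 samples, 5968 and 6348 CPM in the D6 samples, and 5259 and 5061 CPM in the D13 samples, with no overlap between days. The naive factors *Tbx3*, *Tfcp2l1* and *Prdm14* rose, with log2 fold changes of 3.26, 3.17 and 2.43, and *Utf1* fell by 2.96.

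Among 14 other transcription factors of the endoderm, 8 had a row and 0 were called between D0 and D13 by limma, against 13.5% of all genes. At an unadjusted p under 0.05 there were 6, 3 in each direction. Changes under 4-fold reached an adjusted p under 0.05 in limma for *Foxd3* (log2 fold change -1.83), *Otx2* (-1.62) and *Sall4* (-0.71), which were lower. *Cited1* (1.84) and *Hhex* (1.19) were higher in the same way. These genes are named for that adjusted p. The median log2 fold change was -0.17 against -0.01 over all genes. *Sox18*, *Foxa1* and *Foxa3* were among those without a row. The list also holds factors that are not particular to the endoderm, such as *Otx2*. The only call between days was for *Otx2*, singled out after its values were seen, a homeobox factor of the epiblast and of the anterior visceral endoderm, which was lower at D6 than at D0 by a log2 fold change of -2.26 (adjusted p = 0.00125 in limma).

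FGF, PDGF and ERK genes belong to the pathway that the MEK inhibitor blocks. Of 31 such genes, 29 had a row. Between D0 and D13 limma called 11 lower and 1 higher, against 6.01% and 7.45% of all genes. The median log2 fold change was -0.75. The feedback and response genes *Spry4*, *Egr1* and *Dusp6* fell, with log2 fold changes of -7.61, -7.47 and -4.68, as did the receptor gene *Fgfr2* (-7.30). *Pdgfa*, which encodes a ligand of the receptor made from *Pdgfra*, was singled out after its values were seen as the only gene of the list called higher. It had a log2 CPM of 3.34 and 3.30 in the D0 samples, 5.37 and 5.47 in the D6 samples, and 5.63 and 5.32 in the D13 samples. All later samples thus lay above D0, a pattern not counted over all genes. *Pdgfa* rose by a log2 fold change of 2.10 by D6 and of 2.15 by D13 (SE 0.23, adjusted p = 0.000201 in limma), whereas that of *Pdgfra* was 0.69 and was not called. *Pdgfb* and *Pdgfc*, of the same list, had log2 fold changes of 0.86 and -0.51 from D0 to D13 and were not called.

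Endocytic receptors and adaptors showed where *Dab2* and *Amn* stand among the genes of their process. All 17 had a row. Between D0 and D13 limma called 2 lower and 1 higher, against 6.01% and 7.45% of all genes. The median log2 fold change was 0.29. *Lrp2* encodes megalin, a large receptor that binds Dab2 and works with cubilin. Its log2 CPM values were 7.59 and 7.58 for D0, 3.13 and 3.88 for D6, and 2.68 and 3.99 for D13. As for *Dab2*, both D0 samples were far above the other 4, a pattern without overlap found in 26.8% of all genes. *Lrp2* fell by a log2 fold change of -4.24 (SE 0.42, adjusted p = 0.000135 in limma), *Clcn5*, an endosomal chloride transporter, by -2.82, and *Fcgrt*, the neonatal Fc receptor, rose by 2.92. The other 14 were not called, among them the clathrin chains *Clta* (0.09) and *Cltc* (-0.22) and the adaptor subunits *Ap2a1* (0.29) and *Ap2m1* (0.35).

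Matrix and basement membrane genes surround *Sparc*, whose product binds collagen IV. Of 18, 17 had a row. Between D0 and D13 limma called 3 lower and 3 higher, against 6.01% and 7.45% of all genes, with a median of -0.16. The collagen IV chains *Col4a1* and *Col4a2* fell, with log2 fold changes of -5.33 and -4.01, as did the laminin chain *Lamb1* (-3.26), while *Nid1*, encoding nidogen, rose by 2.97. *Sparc* itself, at 0.70, was not called.

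Markers of the tissues that the primitive endoderm forms were counted against the 6.01% of all genes called lower and 7.45% called higher between D0 and D13. Of 18 visceral endoderm markers, 9 had a row, of which 4 were called lower and 1 higher between D0 and D13, with a median of -0.57. The Nodal inhibitor *Lefty1* (log2 fold change -5.99), the Hippo regulator *Amot* (-5.25) and the cadherin *Cdh2* (-4.01) fell, and the apolipoprotein *Apom* rose by 3.98. All 4 are also expressed outside the endoderm, and the defining secreted proteins *Afp*, *Ttr*, *Apoa1* and *Rbp4* had no row. Of 15 parietal endoderm markers, 10 had a row, of which limma called 3 lower, the keratins *Krt19* (-4.10), *Krt8* (-2.93) and *Krt18* (-2.71), which are general epithelial keratins. *Thbd*, *Pth1r* and *Stra6* had no row. Of 13 markers of definitive endoderm and mesendoderm, 6 had a row and 2 were called lower, *Fgf17* (-4.91) and *Nodal* (-2.68), while *T*, *Mixl1* and *Mesp1* had no row.

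**Figure D4:**
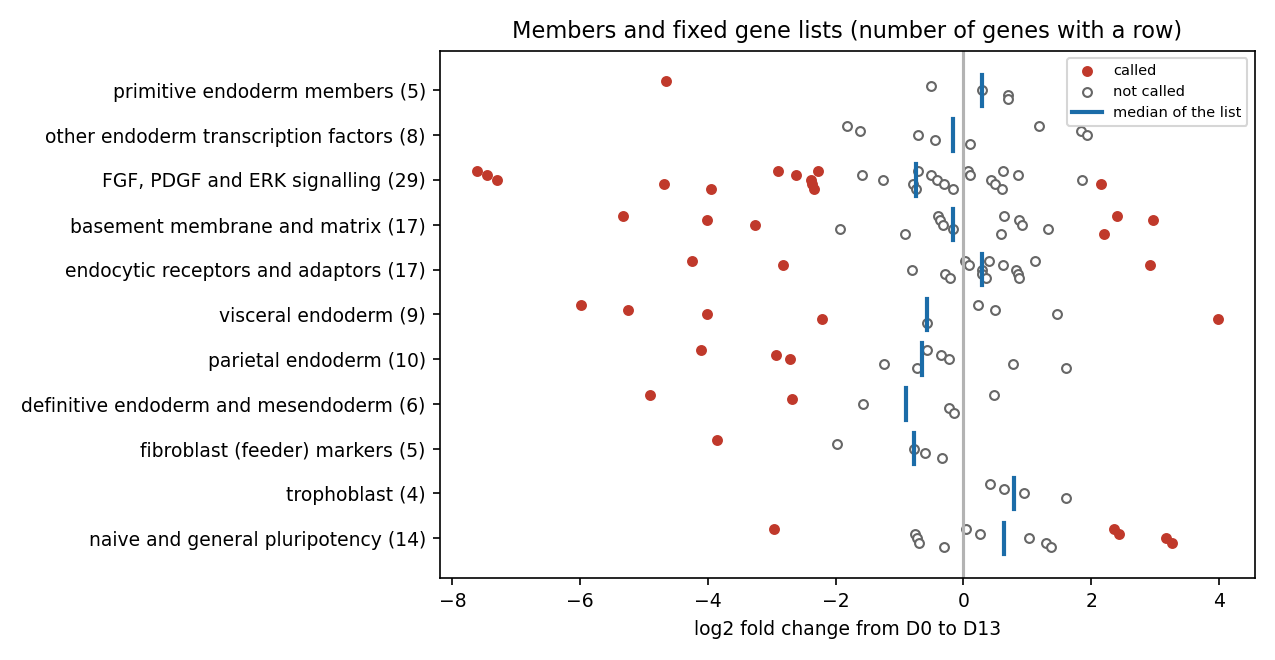
Log2 fold change from D0 to D13 of the 5 members and of each gene of 10 lists, with filled points for called genes and a bar at the median of each list. Among the members *Dab2* is the only filled point, and the list of FGF, PDGF and ERK genes holds 11 of the points called lower.

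The genes whose course over the 6 samples was most like that of each member were found by the root-mean-square difference of log2 CPM after centring each gene on its own mean, over 12160 rows. *Dab2* was closest to *Igsf9* (0.18), *Calca* (0.20) and *Ccdc40* (0.22), with 4 rows within 0.3. *Amn* was closest to *Cpne7* (0.23), *S100a16* (0.35) and *Ltbp3* (0.37), with 1 row within 0.3. *Cpne7* had a log2 CPM of 1.15 and 0.44 in the D0 samples, -1.57 and -2.05 in the D6 samples, and 0.74 and 0.15 in the D13 samples, with D6 lowest as for *Amn*. For the 3 members with no call many rows came within 0.3, with 875 for *Sox17*, 171 for *Pdgfra* and 1102 for *Sparc*. Their closest rows were *Mybl2* (0.11), *Oas2* (0.16) and *Atp5g1* (0.06), respectively.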

How the data were processed

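RNA-seq of J1 ES cells was analysed at D0, D6 and D13, with 2 samples per day grouped by the day in their labels. The authors mapped reads to mm10 with TopHat2 2.0.6 and RefSeq, counted genes with HTSeq 0.6.1 and transposon families from Bowtie 1.0.0 alignments, applied TMM and deposited voom log2 CPM. TMM assumes that most genes do not change.

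The deposited log2 values were tested with limma 3.58.1 (R 4.3.3), with a mean per day and a mean-variance trend. The fit was tested on simulated data. There the changed genes all had more reads on average than *Sox17* and *Amn*, so the simulation does not cover changes at their level. Reads were read off the values, which came within 0.05 of a whole number after removing the offset of 0.5 in 100% of cases. Python 3.11.15 with pandas 2.3.3 and numpy 2.4.6 was used for tables. Lengths, places and sequences are from GENCODE vM21 and RefSeq, with 4 of the 5 members matched to a start window. Names without a capital G, 464 in lower case and 44 shared by several rows were tested and never restored.

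The members and lists were chosen with earlier results of these data known. All members are named, and from each list up to 4 genes with the largest called change from D0 to D13, provided that both samples of the higher day had 10 reads or more and that both replicates changed alike. Genes named otherwise are said to be. A few list genes at small changes or without a row are named as examples. Alternatives were a filter on reads, a fit of 2 days, a replicate block, voom weights, no trend, centring, log2(CPM + 1), other thresholds and each sample left out.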

Additional observations from a re-analysis of the deposited data

How the results depend on the processing

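The count of members called between D0 and D13 was 1 under all 15 alternatives. Between D0 and D6 it was 2, and 1 with log2(CPM + 1), where *Amn* had a log2 fold change of -0.99. Between D6 and D13 it was 0, and 1 (*Amn*) with the replicate block, without the mean-variance trend and after centring on the median gene, with a range of 0 to 1 when each sample was left out, while for D6 against the mean of D0 and D13 it was 2, and 1 with log2(CPM + 1), 0 at an adjusted p under 0.01 and 0 to 2 when each sample was left out. Of 255 values of members under alternatives, 231 kept their direction and side of the threshold, 5 lost a call, 5 gained one and 14 changed sign, none of these in a called difference. Besides those given for *Sox17* and *Amn*, sign changes on leaving out a sample gave ranges of -0.055 to 0.32 (*Sox17*), -0.21 to 0.55 (*Pdgfra*) and -0.17 to 0.33 (*Sparc*) between D6 and D13, -0.14 to 0.73 (*Sox17*) and -1.04 to 0.024 (*Amn*) between D0 and D13, -0.28 to 0.60 (*Sox17*) between D0 and D6, and -0.20 to 0.23 (*Sox17*) and -0.20 to 0.56 (*Pdgfra*) for D6 against the mean of D0 and D13, where *Sox17* was -0.0024 with log2(CPM + 1). The causes were not tested.

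The main fit did not pair the samples by replicate number. The differences between replicates 1 and 2 correlated across genes at -0.13 for D0 and D6, 0.33 for D6 and D13 and 0.14 for D0 and D13. These values do not settle whether samples with the same number belong together. The replicate block changed no other call of a member. Over all genes, log2(CPM + 1) gave 748, 49 and 1106 calls for D0 to D6, D6 to D13 and D0 to D13 against 1238, 137 and 1700, and a 2-fold minimum gave 2612, 509 and 4157. The share of calls that were higher from D6 to D13 was 55.1% with log2(CPM + 1), from 27 higher and 22 lower genes against 49 and 88. An adjusted p under 0.01 gave 4 calls from D6 to D13, and 353 against 971 for D6 against the mean of D0 and D13. Leaving out a sample gave 0 to 257 calls from D6 to D13, with 0 without D13 replicate 1, 57 and 18 without D6 replicates 1 and 2 and 257 without D13 replicate 2, and 247 and 320 calls for D6 against the mean without D6 replicates 1 and 2. The filter of 10 reads in 2 samples removed no gene. The planned edgeR and DESeq2 fits were not run. Reads could be read off the log2 values, but count tests were kept to files deposited as counts. When a sample was left out, the lone sample of its day was assumed to vary like the others. With 14 or 15 reads at D6, *Amn* had the fewest reads of the members, and 2 samples per day limit the precision of all.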
